A study of Homo sapiens with 24 samples.

Results

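The replication-dependent histone genes encode the 4 core histones and the linker histone H1 that package newly made DNA. They were taken as every protein-coding gene of chromosomes 1 and 6 named H1-1 to H1-6, or with a symbol that begins H2AC, H2BC, H3C or H4C followed by digits. This gave 68 of 61551 genes in the count table: 6 of family H1, 17 of H2A, 18 of H2B, 13 of H3 and 14 of H4. On GRCh38, 55 lie in the cluster at 6p22, between H2AC1 (chr6:25726063-25726562) and H2BC17 (chr6:27893425-27893891), 11 lie at 1q21 and 2 at 1q42 (H2AC25 and H2BC26).

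RNA was sequenced from H9, an established human embryonic stem cell line, after ribosomal RNA had been depleted, a method that keeps RNAs without a poly(A) tail. HAR123 is a human accelerated region, a conserved element with many human-specific changes, within the SMG6 gene. The 4 genotypes were unedited cells with the human sequence (hHAR123, labelled WT), cells with HAR123 deleted (HAR123-KO), and cells in which it had been replaced with the chimpanzee (cHAR123) or mouse (mHAR123) ortholog. Each genotype had 3 libraries at each of 2 stages, untreated embryonic stem cells (ESC) and neuroectoderm after 5 days with Noggin and SB431542, inhibitors of BMP and of activin/TGF-β signaling.

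The methods give a pair of independent clones per genotype, and the libraries of a group are called biological replicates, but the clone behind each library was not given, nor whether each came from a culture of its own. A difference between genotypes can therefore not be told apart from a difference between clones, and p-values measure only the spread between these libraries. Libraries held 23334732 to 35198684 counts in ESC and 21022748 to 25978892 in neuroectoderm. The median coefficient of variation of the histone genes between the 3 libraries of a group was 1.81% to 4.14%. Groups are named by the column labels. In neuroectoderm, the base means in the study's lists for the chimpanzee ortholog fit the mHAR123 columns and those for the mouse ortholog the cHAR123 columns, so the knock-in labels are uncertain at that stage. H4C13 was nearly absent under the cHAR123 label at both stages (values given with that gene).

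Expression of these genes is coupled to S phase, when the cell needs histones for the DNA it copies. NPAT, activated by cyclin E with CDK2, drives their transcription within nuclear histone locus bodies. Their RNAs have, as a rule, no introns and end in a conserved stem-loop in place of a poly(A) tail. SLBP binds the stem-loop, the U7 snRNP guides cleavage just after it, and the RNAs are rapidly degraded when DNA synthesis stops.

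The genomic sequence after the stop codons held this stem-loop, while the ends of the annotated transcripts were not compared with it. A 16-base stem-loop was found within 150 bases after the stop codon in 68 of 68 genes, 22 to 67 bases after it (median 35). The same search found one in 3 of 3028 other protein-coding genes of the same chromosomes (0.0991%). There were 10 distinct sequences. The most frequent was shared by 40 genes of families H1, H2A, H2B and H3, another was shared by 9 H4 genes, another by 9 genes including H1-1, H1-6, H2BC4 and H2BC12, and another by 4 H4 genes (H4C9, H4C12, H4C14 and H4C15). The other 6 occurred in 1 gene each. The stem-loops of genes described below are printed 5′ to 3′ on the gene's strand with 7 bases on either side, and capitals mark the stem-loop. They are shown since every gene shares this element while the levels of the genes diverge.
H1-1, chr6:26017030-26017059, minus strand: acccaacGGCTCTTTTAAGAGCCacctacg
H2AC6, chr6:26124662-26124691, plus strand: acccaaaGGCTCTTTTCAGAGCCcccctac
H2BC3, chr6:26043225-26043254, minus strand: acccaaaGGCTCTTTTCAGAGCCacctact
H2BC15, chr6:27839083-27839112, plus strand: ccccaaaGGCTCTTTTCAGAGCCactcagt
H3C3, chr6:26045842-26045871, plus strand: ttgaaaaGGCTCTTTTCAGAGCCactcaca
H3C11, chr6:27871843-27871872, minus strand: cccaaaaGGCTCTTTTCAGAGCCcctcaat
H4C9, chr6:27139647-27139676, plus strand: ctaaaaaGGCCCTTTTTAGGGCCcctaagc
H4C12, chr6:27831171-27831200, minus strand: aacaaaaGGCCCTTTTTAGGGCCcccactt
H4C13, chr6:27873146-27873175, minus strand: cctcaaaGGCCCTTCTCAGGGCCacccatg

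Promoters (RefSeq, GRCh38.p14, the 250 bases before the start) were found for 63 of the 68 genes. Letters were searched on both strands. TATAAA stood in 41 promoters (65.08%, against 11.13% of 27305 promoters in all), and CCAAT in 54 (85.71%, against 33.04%), including every H1, H2A, H2B and H3 promoter but only 3 of 12 H4 promoters. The octamer ATTTGCAT, the site of the OCT factors, stood in 26 (41.27%, against 1.663%), namely in 14 of 18 H2B, 11 of 16 H2A and 1 of 11 H3 promoters. AAACACA, the H1 box, stood in all 6 H1 promoters and in no other histone promoter (4.948% of all promoters). A match describes letters in a window and not a site in use. Promoters of genes whose level stood apart from their family are printed with these letters in capitals.
H1-1, chr6:26017788-26018037, minus strand: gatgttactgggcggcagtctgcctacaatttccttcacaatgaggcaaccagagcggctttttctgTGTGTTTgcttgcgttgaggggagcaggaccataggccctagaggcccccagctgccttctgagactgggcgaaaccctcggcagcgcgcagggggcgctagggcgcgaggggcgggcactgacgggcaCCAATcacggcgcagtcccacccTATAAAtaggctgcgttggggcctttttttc
H2BC3, chr6:26043714-26043963, minus strand: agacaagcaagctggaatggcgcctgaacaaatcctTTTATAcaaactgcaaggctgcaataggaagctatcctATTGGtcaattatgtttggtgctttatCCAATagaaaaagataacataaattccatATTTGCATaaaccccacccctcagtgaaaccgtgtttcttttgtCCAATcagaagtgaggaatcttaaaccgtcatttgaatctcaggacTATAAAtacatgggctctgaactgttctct
H4C9, chr6:27139032-27139281, plus strand: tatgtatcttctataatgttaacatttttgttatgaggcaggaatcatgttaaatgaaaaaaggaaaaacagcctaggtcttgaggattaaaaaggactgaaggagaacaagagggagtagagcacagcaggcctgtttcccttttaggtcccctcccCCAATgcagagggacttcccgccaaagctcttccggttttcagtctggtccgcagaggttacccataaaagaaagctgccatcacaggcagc
H4C13, chr6:27873535-27873784, minus strand: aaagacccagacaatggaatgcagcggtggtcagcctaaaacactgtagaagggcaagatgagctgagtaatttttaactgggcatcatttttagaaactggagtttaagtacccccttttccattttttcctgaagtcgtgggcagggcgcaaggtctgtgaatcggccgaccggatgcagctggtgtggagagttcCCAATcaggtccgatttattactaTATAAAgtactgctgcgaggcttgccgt

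Together the 68 genes took 1.64% ± 0.0245 (SD, n = 3) of the counts of hHAR123 ESC, and 0.982% ± 0.0316 in hHAR123 neuroectoderm. In HAR123-KO the share was 1.54% ± 0.0239 in ESC and 1.26% ± 0.0250 in neuroectoderm. It went from 1.52% ± 0.0339 to 1.01% ± 0.00400 in cHAR123, and from 1.51% ± 0.0260 to 1.05% ± 0.0157 in mHAR123. Every ESC library lay above every neuroectoderm library. Among neuroectoderm libraries the 3 of HAR123-KO (1.23% to 1.28%) lay above the other 9 (0.945% to 1.07%), and hHAR123 (0.945% to 1.002%) lay below cHAR123 and mHAR123. In these bulk samples, fewer cells in S phase and less histone RNA per cell cannot be told apart.

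**Figure D1:**
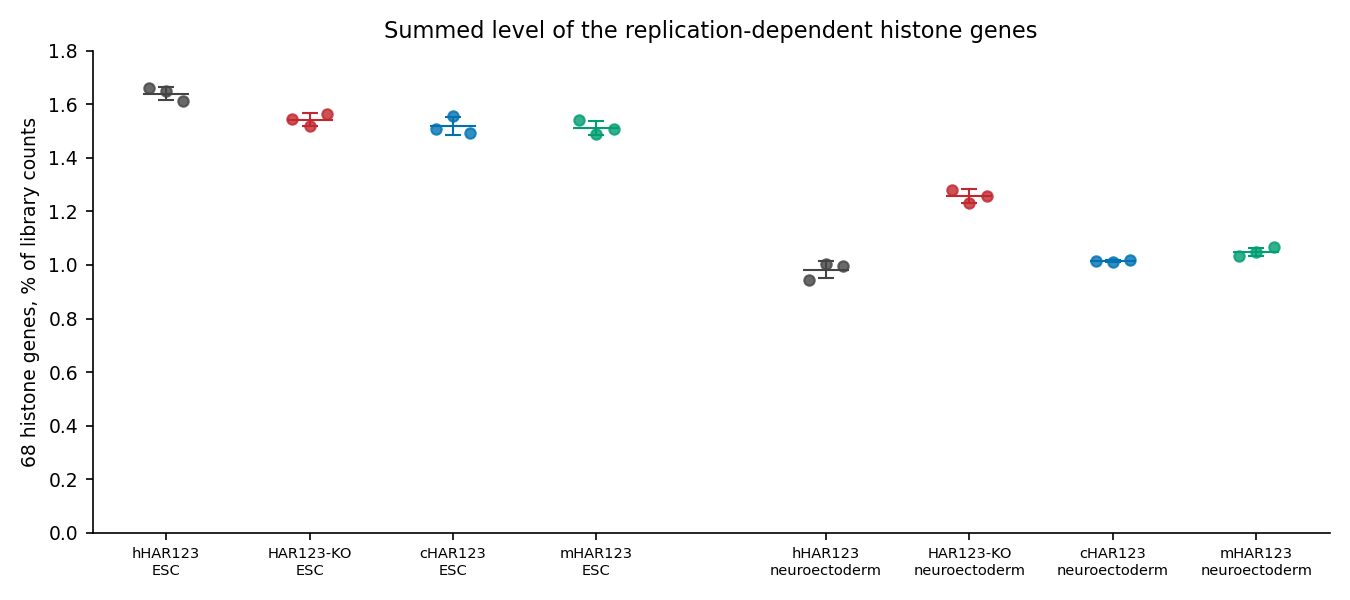
The vertical axis gives the summed counts of the 68 histone genes as a percentage of all counts of the library, and groups are set side by side; each point is a library, the long bar the mean and the whiskers ± 1 SD of 3 libraries. ESC libraries lie between 1.49% and 1.66%, and in neuroectoderm HAR123-KO, at 1.23% to 1.28%, stands above the other genotypes.

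The number of genes behind these sums was uneven. In the mean of all 24 libraries 46 genes exceeded 100 CPM (counts per 1000000 counts of the library), 16 lay between 1 and 100, and 6 were at or under 1 CPM in every library (H2AC1, H2AC7, H2AC17, H2BC1, H3C4 and H4C7). H2AC1 and H2BC1 are the testis forms of H2A and H2B. Scaled to the length of each gene, the highest levels in ESC were those of H4C12 (1921 to 2261 CPM per kilobase over 12 libraries) and H4C11 (1911 to 2247). H2AC19 (1232 to 1379) and H3C14 (1057 to 1214) led their families, followed by their copies H2AC18 and H3C15. H1-5 (845 to 960) led H1, before H1-2, and H2BC12 (637 to 715) led H2B, before H2BC9. This order depends on the annotated lengths. H2BC18, annotated with 1798 bases against 495 for H2BC12, had the higher CPM in ESC (median 348 against 334).

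Near-identical pairs of copies could not be separated. H4C11 and H4C12 differed by 1 to 43 reads per library although each held 13045 or more, where dividing the reads at random would give an SD of 162 to 243. Counts of H4C14 and H4C15 differed by 0 to 7 reads (SD of a random division 99.1 to 195). H2AC18 and H2AC19 differed by 17 to 190 (SD 120.5 to 224), and H3C14 and H3C15 by 9 to 207 (SD 116 to 209). Differences in the H2A and H3 pairs thus reached the size that a random division would give, unlike those in the H4 pairs. Sums over the genes may count such reads more than once, and both members of each pair are uncertain as separate measurements.

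The first comparison asked how differentiation changed the histone RNAs in each genotype. In hHAR123, 62 of the 68 genes passed the filter on low counts, and 62 were down-regulated in neuroectoderm (edgeR quasi-likelihood test, Benjamini-Hochberg adjusted p under 0.01), 42 of them by over 2-fold, and none was up-regulated. Among all genes tested, 39.7% were down-regulated, 21.2% by over 2-fold, and 40.3% up-regulated. The median log2 change of the histone genes was −1.17, against 0.05 over all genes. By family, the medians were −0.98 for H1, −1.07 for H2A, −1.20 for H2B, −1.13 for H3 and −1.37 for H4, so that every class of histone was reduced.

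Fold changes rest on TMM scaling, which sets the bulk of genes equal between libraries, while CPM values do not. With library totals in its place, the median of all genes moved to 0.34, the split of all genes to 50.3% up and 31.5% down, and the median of the histone genes to −0.88. In that fit 59 histone genes were down-regulated, 23 by over 2-fold, and H4C4 was up-regulated. The share of all genes over 2-fold is not given here for library totals, so the 23 cannot be set against the share with TMM. H4C4 thus changed sign with the scaling in all 4 genotypes (−0.19 in hHAR123 with TMM). Its CPM in hHAR123 was 206.5 to 217 in ESC and 219 to 236 in neuroectoderm. H2AC6 (−0.20 in hHAR123 with TMM) also changed sign there, without passing the test.

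The same comparison within the other genotypes gave a smaller median. In HAR123-KO 58 of 62 histone genes were down-regulated (39.4% of all genes), 11 by over 2-fold (19.1%; 7 histone genes with library totals), and 3 up-regulated (39.8%), with a median of −0.57. In cHAR123 59 of 62 were down-regulated (39.4%), 23 by over 2-fold (20.8%), and 0 up-regulated (39.5%), with a median of −0.91. mHAR123 had 59 of 62 down-regulated (39.5%), 19 by over 2-fold (20.7%), and 0 up-regulated (39.1%), with a median of −0.81. In hHAR123, cHAR123 and mHAR123, DESeq2 also found 0 up-regulated histone genes, and edgeR 0 at an unadjusted p under 0.05. With library totals, however, 3 genes were up-regulated in cHAR123 and in mHAR123 (H2AC6, H4C4 and H4C5). Shares of all genes with library totals are not given here for this comparison in the edited lines. The 3 genes up-regulated in HAR123-KO were H4C5 (0.13, SE 0.03), H2AC6 (0.13, SE 0.03) and H2AC20 (0.11, SE 0.03), with edgeR adjusted p of 1.14e-05, 0.000105 and 0.00211. DESeq2 found 1 up-regulated gene, and its adjusted p was 0.0400 for H2AC6 and 0.233 for H2AC20, which also missed the threshold with DESeq2 size factors and without HAR123-KO neuroectoderm library 1 or ESC library 1 or 2 (adjusted p = 0.0215, 0.0213 and 0.215 in edgeR). The summed share in neuroectoderm was 0.598 of that in ESC for hHAR123, 0.815 for HAR123-KO, 0.668 for cHAR123 and 0.694 for mHAR123.

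**Figure D2:**
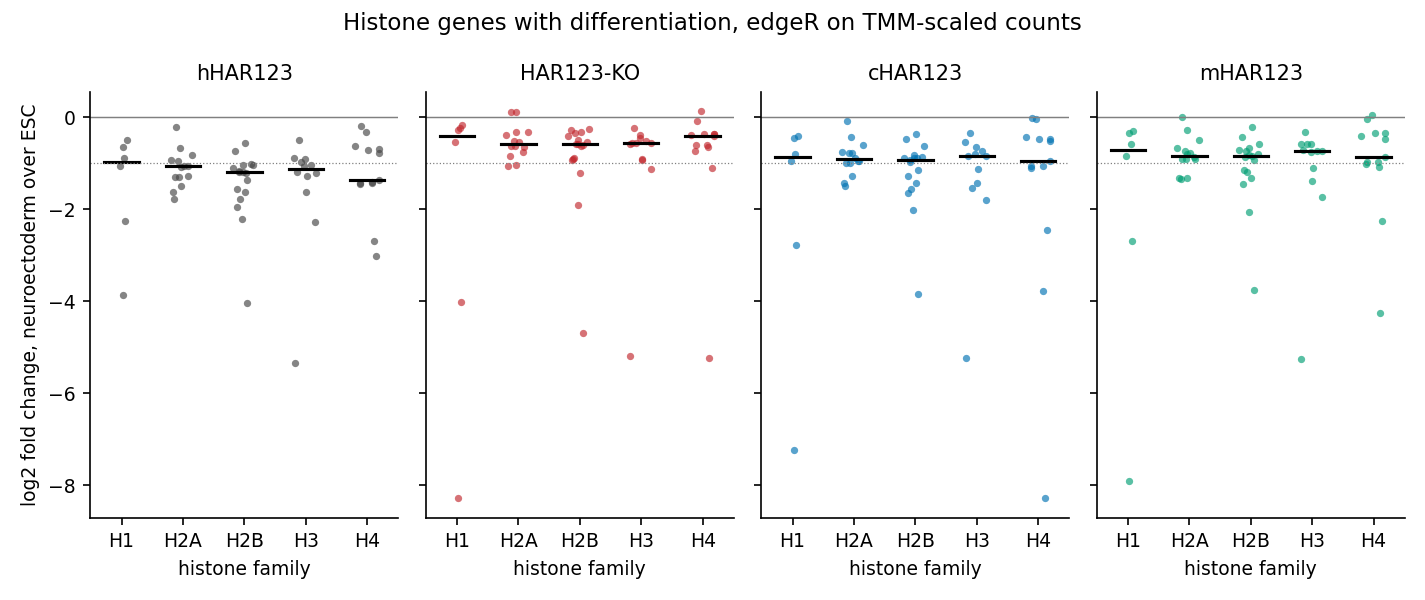
Each point is a histone gene that passed the filter (62 per panel), placed by family on the horizontal axis and by its log2 fold change of neuroectoderm over ESC on the vertical axis, with 1 panel per genotype; bars are family medians, and the dotted line marks a 2-fold decrease. In hHAR123 all points lie under 0, with medians from −0.98 to −1.37, and in HAR123-KO the medians lie between −0.40 and −0.59.

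H1-1 (ENSG00000124610), a linker histone of somatic cells, was among the most strongly reduced genes in every genotype. It measured 36.5 to 43.6 CPM in the 12 ESC libraries. In neuroectoderm it was 3.71, 3.14 and 3.16 CPM in hHAR123, 0.258, 0.125 and 0.0817 in HAR123-KO, 0.280, 0.211 and 0.359 in cHAR123, and 0.269, 0.124 and 0.130 in mHAR123. The stages did not overlap, and all 9 edited neuroectoderm libraries lay under the 3 hHAR123 libraries. Its log2 fold change with differentiation was −3.86 (SE 0.08) in hHAR123, while the edited lines fell to counts of 2 to 8 per library. Set against ESC, the summed counts of HAR123-KO were 281-fold lower (exact 95% interval 157 to 563, for counting error only).

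H3C3, H2BC3 and H4C6 were also reduced, with low levels throughout. H3C3 lay at 8.24 to 13.5 CPM in ESC and at 0.127 to 0.474 in neuroectoderm over 12 libraries each. H2BC3, a neighbor within the 6p22 cluster, lay at 4.55 to 8.03 CPM and at 0.0817 to 0.661. Neither stage range overlapped the other. The ratio of ESC to neuroectoderm in hHAR123 was 33.8 for H3C3 (exact 95% counting interval 21.3 to 57.4) and 13.6 for H2BC3 (9.11 to 21.2), and both passed the test (log2 −5.35, SE 0.21, and −4.04, SE 0.24, after TMM scaling). H4C6 had 30 to 72 counts per ESC library, but 11, 9 and 4 in hHAR123 neuroectoderm, 2, 2 and 0 in HAR123-KO, 0 in each cHAR123 library and 2, 3 and 0 in mHAR123. In hHAR123 the ratio of ESC to neuroectoderm for H4C6 was 5.34 (exact 95% counting interval 3.48 to 8.55), smaller than for H3C3 and H2BC3. At a floor of 3 counts per neuroectoderm library, H4C6 was 15.8-fold lower in HAR123-KO, 11.03-fold in cHAR123 and 10.1-fold in mHAR123 than in ESC. The exact 95% counting intervals of its summed counts began at 13.6-fold in HAR123-KO, 26.5-fold in cHAR123 and 7.54-fold in mHAR123.

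H4C9 (ENSG00000276180) was reduced most among the abundant genes. Its level was 354 to 385 CPM in all ESC libraries, and it fell to 56.0, 57.7 and 57.7 CPM in hHAR123 neuroectoderm (log2 −3.02, SE 0.04). Of all H4 counts it made up 8.42% ± 0.155 (SD, n = 3) in hHAR123 ESC and 2.004% ± 0.0465 in hHAR123 neuroectoderm. H4C12, whose stem-loop is the same, changed by only −0.70 (SE 0.03) and rose as a share of H4 counts from 18.97% to 22.6%. Its counts could not be separated from those of H4C11, whose stem-loop differs. The H4 sums may hold reads of such copies more than once. H3C13 at 1q21, an H3.2 gene, was reduced from 237 to 251 CPM to 60.0 to 64.0 (log2 −2.28, SE 0.04).

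Some of these genes can also give polyadenylated or spliced RNAs, and 13 were annotated with more than 1 exon block. Among the genes known for such RNAs, the log2 change with differentiation in hHAR123 was −0.20 for H2AC6, −0.49 for H1-2, −0.56 for H2BC4 and −0.74 for H2BC5, all above the family medians. H2BC21 (−1.16) and H2BC12 (−1.20) lay next to the H2B median of −1.20. Of the other annotated genes with several exon blocks, changes ranged from −1.06 in H3C6 to −1.77 in H2BC15. The summed share of the 55 genes with a single exon block fell to 0.614 of its ESC level, close to 0.598 for all 68. Counts do not show which RNA of a gene was measured. 5 of the genes overlap exons of another gene on the same strand and 3 on the opposite strand (H2BC18, H2AC21 and H2BC6), where reads may be shared, since the strand setting of the counting was not given.

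The second comparison asked whether the edited lines differed from hHAR123 before differentiation. All comparisons between genotypes at a stage share the same 3 hHAR123 libraries. In ESC, the histone genes were slightly lower in each edited line. HAR123-KO had 27 of 64 tested down-regulated (5.29% of all genes) and 2 up-regulated (7.06%), with a median log2 change of −0.09. cHAR123 had 47 of 62 down-regulated (8.6%) and 0 up-regulated (7.72%), with a median of −0.13. mHAR123 had 50 of 64 down-regulated (10.2%) and 0 up-regulated (9.02%), with a median of −0.15. DESeq2 also found 0 up-regulated in cHAR123 and mHAR123, where edgeR had 1 and 2 at an unadjusted p under 0.05.

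**Figure D3:**
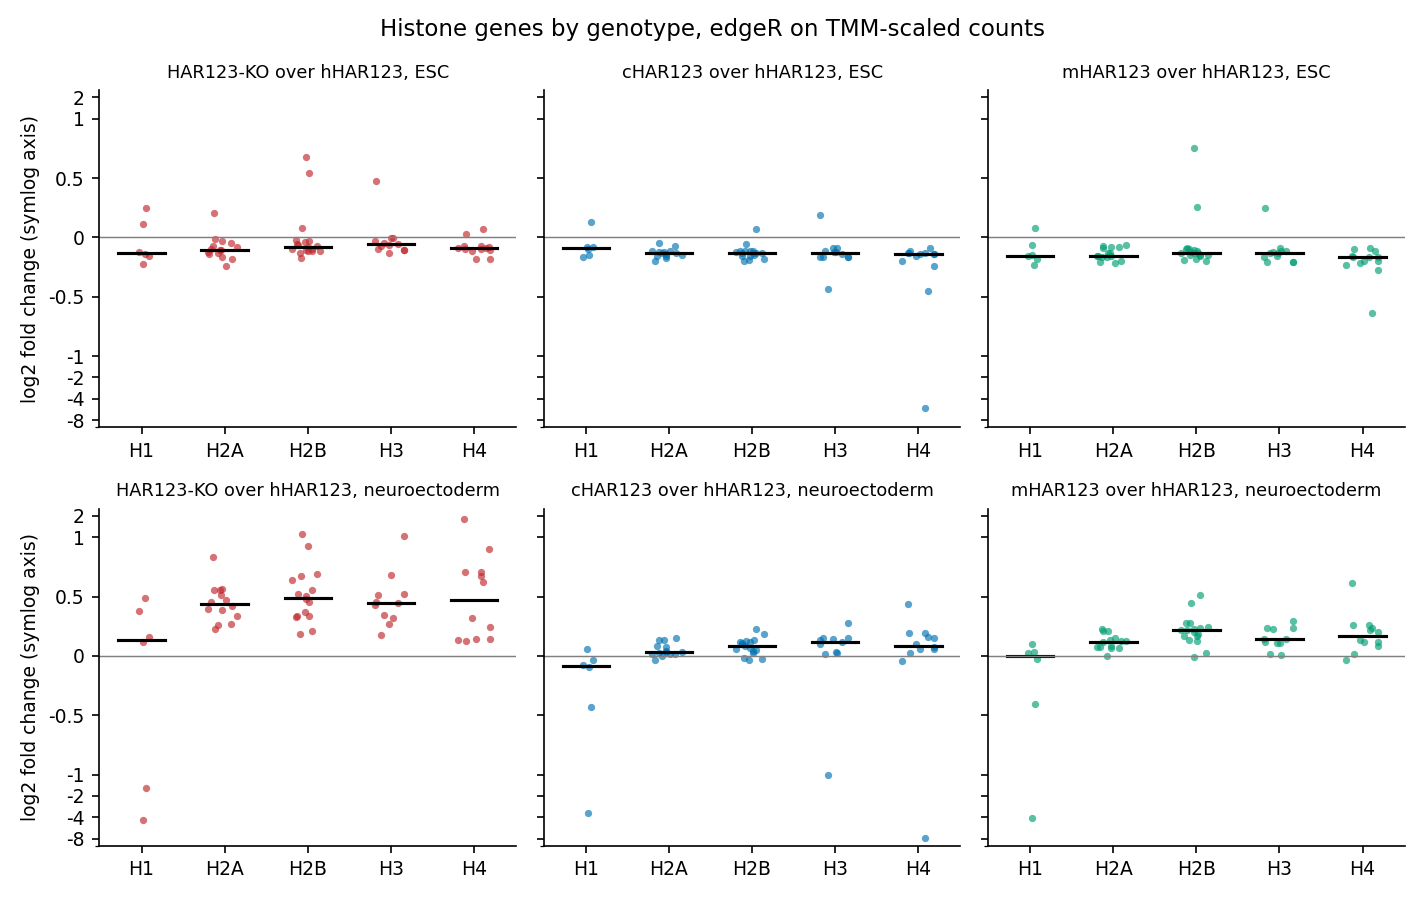
Points are histone genes that passed the filter, by family on the horizontal axis, and the vertical axis, linear between −1 and 1 and logarithmic beyond, gives the log2 fold change of an edited line over hHAR123, with ESC in the upper and neuroectoderm in the lower row; bars are family medians. Most points lie just under 0 in ESC, and in HAR123-KO neuroectoderm all families but H1 have medians of 0.44 to 0.49.

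These ESC differences were small and some counts depended on single libraries. The total of 29 changed in HAR123-KO was 16 without HAR123-KO library 1, 19 without its library 2 and 13 without hHAR123 library 2. In cHAR123 the total of 47 was 29 without cHAR123 library 3 and also 29 with library totals, under which all genes split to 9.14% up and 4.85% down. H2AC20 and H1-4 were the most reduced in HAR123-KO. H2AC20 measured 152, 156 and 146 CPM in hHAR123 ESC and 132, 122 and 136 in HAR123-KO, without overlap (log2 −0.24, SE 0.04). H1-4, at 463, 458 and 431 CPM against 382, 370 and 417, did not overlap either (log2 −0.23, SE 0.03), although its DESeq2 adjusted p of 0.0101 missed the threshold. In mHAR123, H4C1 (−0.27, SE 0.04) and H1-3 (−0.23, SE 0.03) were the most reduced of the genes that passed the test and averaged 1 CPM or more, while H4C6, with few counts, was at −0.64 (SE 0.20, edgeR adjusted p = 0.0128).

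H2BC3 and H3C3 went the other way in HAR123-KO ESC. H2BC3 was 4.55, 4.82 and 5.45 CPM in hHAR123 and 7.67, 8.03 and 6.39 in HAR123-KO (log2 0.54, SE 0.10, edgeR adjusted p = 9.83e-05). H3C3 was 9.97, 8.49 and 8.24 CPM in hHAR123 and 13.5, 11.8 and 12.3 in HAR123-KO (log2 0.47, SE 0.08, edgeR adjusted p = 2.48e-05). For both, every HAR123-KO library lay above every hHAR123 library. They are the genes named above for their near loss in neuroectoderm.

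The third comparison asked the same after differentiation. In HAR123-KO neuroectoderm 56 of 59 tested histone genes were up-regulated over hHAR123 (24.2% of all genes), 3 by over 2-fold (4.92%), and 2 were down-regulated (19.9%), both by over 2-fold (4.52%). The median log2 change was 0.44, against 0.00 over all genes. All 14 H2A, 11 H3 and 12 H4 genes tested were up-regulated, as were 15 of 16 H2B genes, with family medians of 0.44, 0.44, 0.47 and 0.49. H1 stood apart with a median of 0.14, since 4 of its genes were up-regulated (H1-3 the most, at 0.49) and 2 were down-regulated, H1-1 and H1-6. The 11 genes of the 1q21 cluster were all up-regulated, with a median of 0.55, and in the 6p22 cluster the median was 0.38. Among 59 genes, the mean CPM was highest in HAR123-KO for 57 and lowest in hHAR123 for 42.

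Marker levels also differed between the genotypes in neuroectoderm. Over 6 neural crest markers, the summed level in neuroectoderm was 1419 to 1428 CPM in HAR123-KO, 109 to 116 in hHAR123, 250.5 to 262 in cHAR123 and 287 to 290.2 in mHAR123, and 6 of 6 were up-regulated in HAR123-KO. Over 8 neuroectoderm markers it was 1023 to 1042 CPM in HAR123-KO, 2326 to 2341 in hHAR123, 2277 to 2305 in cHAR123 and 2089 to 2127 in mHAR123, with 7 of 7 tested down-regulated in HAR123-KO. Markers of mesoderm and endoderm summed to under 1 CPM in every neuroectoderm library. The part of these cell types in the histone levels was not tested.

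H4C9 was increased the most. In neuroectoderm it measured 198, 193 and 193 CPM in HAR123-KO against 56.0, 57.7 and 57.7 in hHAR123, a ratio of 3.40 between the mean CPM. After TMM scaling the log2 fold change was 1.82 (SE 0.04, edgeR adjusted p = 3.07e-40). The cHAR123 libraries measured 77.9, 73.9 and 78.8 CPM (0.44, SE 0.04) and the mHAR123 libraries 82.5, 90.0 and 83.3 (0.62, SE 0.05). No library of one genotype overlapped another genotype, and the neighbors cHAR123 and mHAR123 lay closest, at 73.9 to 78.8 and 82.5 to 90.0 CPM, a difference that was not tested. Its share of H4 counts was 5.46% ± 0.0321 in HAR123-KO, 2.58% ± 0.0841 in cHAR123 and 2.78% ± 0.123 in mHAR123 (SD, n = 3), above the 2.004% of hHAR123.

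H2BC15 and H3C13 were the others past 2-fold. H2BC15 measured 31.9, 35.8 and 36.2 CPM in hHAR123 neuroectoderm and 72.7, 68.8 and 74.8 in HAR123-KO (log2 1.11, SE 0.05). Its values were 35.5, 38.9 and 37.9 CPM in cHAR123, overlapping hHAR123, and 44.5, 44.4 and 49.3 in mHAR123 (log2 0.45, SE 0.06). H3C13 measured 60.9, 64.0 and 60.0 CPM in hHAR123, 126, 117 and 122 in HAR123-KO (log2 1.03, SE 0.04), and 72.1, 73.0 and 76.8 in cHAR123 (log2 0.28, SE 0.04). The most abundant genes moved less. H4C12, at 622 to 657 CPM in hHAR123 and 676 to 690.5 in HAR123-KO, changed by 0.14, and H2BC12 by 0.45, H2AC19 by 0.55, H3C14 by 0.52 and H1-5 by 0.38.

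H1-1 and H1-6 were reduced in HAR123-KO while their family rose. The H1-1 values given above correspond to 78, 76 and 74 counts in hHAR123 neuroectoderm and 6, 3 and 2 in HAR123-KO. The summed counts were 21.7-fold lower in HAR123-KO (exact 95% counting interval 11.9 to 44.0), 11.8-fold lower in cHAR123 (7.45 to 19.7) and 18.7-fold lower in mHAR123 (10.7 to 35.7). H1-1 was thus reduced in all 3 edited lines, with edgeR adjusted p of 2.46e-17, 5.15e-14 and 5.18e-14. H1-6, the testis linker histone H1t, was 0.951, 0.992 and 1.62 CPM in hHAR123 and 0.560, 0.458 and 0.163 in HAR123-KO (log2 −1.55, SE 0.35), with no overlap, and its DESeq2 adjusted p of 0.0108 missed the threshold. H4C6 was below the filter here. With edited lines set to the floor of 3 counts per library, it was 2.79-fold lower in HAR123-KO, 2.76-fold in cHAR123 and 2.85-fold in mHAR123. The exact 95% counting intervals of its summed counts began at 2.15-fold in HAR123-KO, 6.22-fold in cHAR123 and 1.92-fold in mHAR123.

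**Figure D4:**
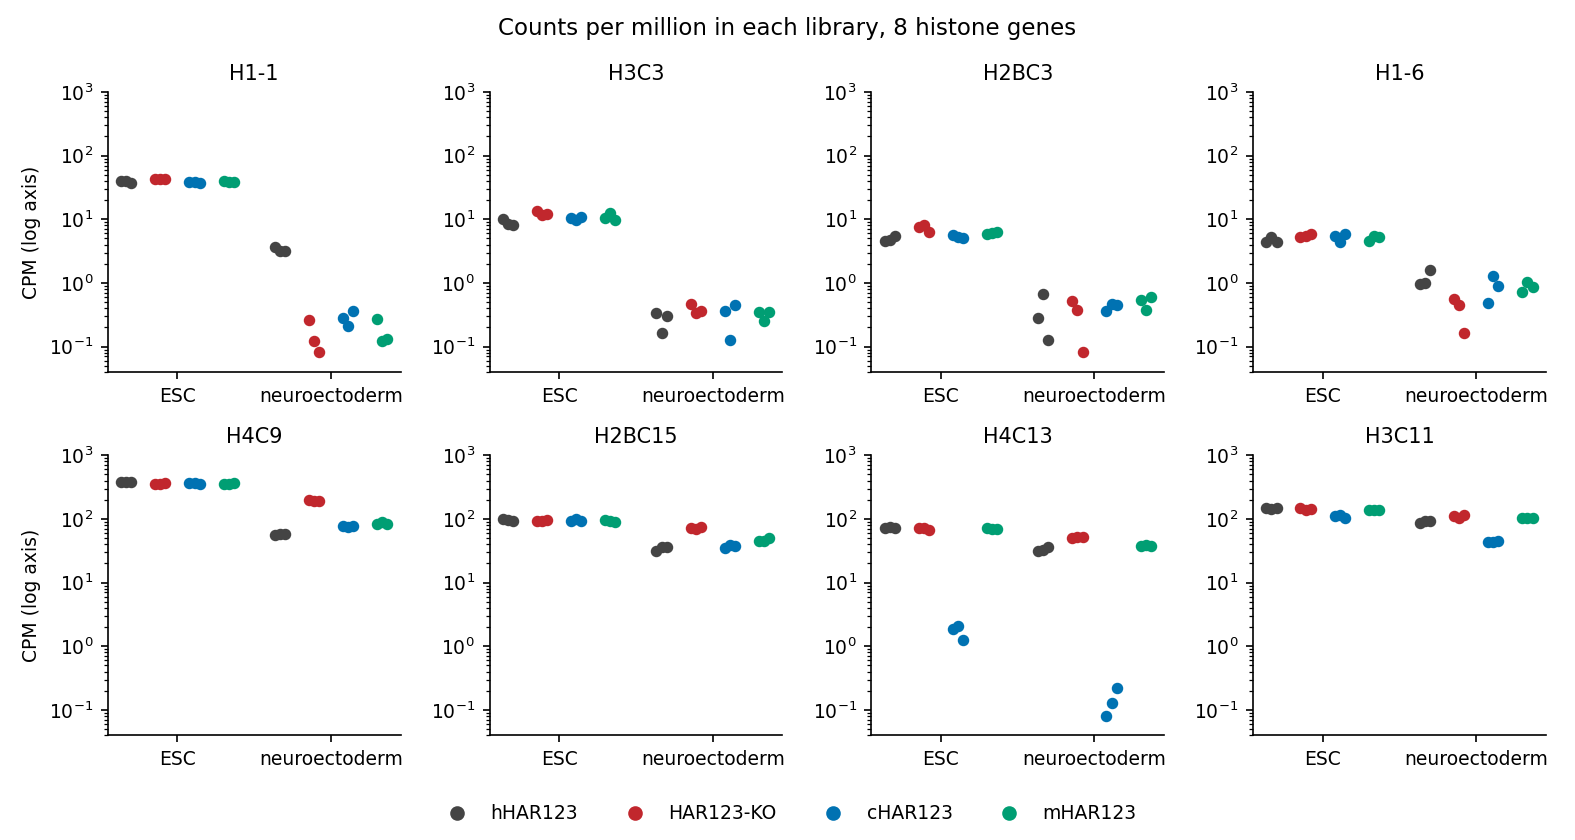
The 8 panels give CPM on a logarithmic axis in each of the 24 libraries, for ESC and neuroectoderm on the horizontal axis, with genotypes in colors; libraries with no counts would fall off the axis, and there are none in these genes. H1-1 in neuroectoderm is lower in all 9 edited libraries, H4C9 and H2BC15 are highest in HAR123-KO, and H4C13 is near 0 in cHAR123 alone.

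The knock-in lines stayed closer to hHAR123 in neuroectoderm. In cHAR123, 14 of 60 tested histone genes were up-regulated (5.9% of all genes) and 3 down-regulated (3.99%), each of the 3 by over 2-fold (0.456%), with a median of 0.06. The total of 17 was 10 without cHAR123 library 1 or without its library 3. In mHAR123, 28 of 60 were up-regulated (8.8%) and 1 down-regulated (5.21%), by over 2-fold (0.429%), with a median of 0.14. With library totals all genes split to 6.02% up and 8.63% down, and 21 histone genes were up-regulated in mHAR123. The single reduced gene was H1-1, and the 3 in cHAR123 were H1-1, H4C13 and H3C11. Whether the knock-in lines differed from HAR123-KO or from each other was not tested.

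H4C13 (ENSG00000275126, chr6:27873148-27873534, minus strand) was nearly lost in cHAR123 at both stages. In ESC it measured 71.8, 74.1 and 72.2 CPM in hHAR123, 67.95 to 71.7 in HAR123-KO and 69.4 to 72.1 in mHAR123, but 1.84, 2.10 and 1.27 in cHAR123 (log2 −5.43, SE 0.08). In neuroectoderm it measured 31.2, 33.1 and 35.8 CPM in hHAR123, 51.0 to 51.9 in HAR123-KO and 37.0 to 38.8 in mHAR123, but 0.0800, 0.127 and 0.224 in cHAR123, where 2, 3 and 5 reads were counted. The summed counts were 237-fold lower there than in hHAR123 (exact 95% counting interval 129 to 495). No cHAR123 library reached any library of another genotype at its stage.

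The next gene on the same strand, H3C11 (chr6:27871845-27872346), was also reduced in cHAR123. It measured 113, 115 and 103 CPM in cHAR123 ESC against 145 to 146 in hHAR123 (log2 −0.43, SE 0.03). In neuroectoderm it was 43.6, 43.6 and 44.4 CPM against 85.8, 91.8 and 93.9 (log2 −1.03, SE 0.04), without overlap at either stage. Its change in neuroectoderm was 0.23 (SE 0.04) in mHAR123. Other genes beside this pair changed by −0.16 in ESC and −0.08 in neuroectoderm (H1-5), −0.20 and −0.04 (H2AC16), and −0.12 and 0.04 (H3C12). A change of the DNA at this place in the cHAR123 clones was not tested.

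For most histone genes, the difference between HAR123-KO and hHAR123 was not the same in ESC and in neuroectoderm. In a fit of both genotypes at both stages, the interaction term passed the threshold for 59 of 62 genes, 56 with a higher (18.6% of all genes) and 3 with a lower value in neuroectoderm (13.9%), with a median difference of 0.50 on the log2 scale. H4C9 (1.898, SE 0.04) and H2BC15 (1.16, SE 0.06) had the largest positive differences. The 3 negative ones were H1-1 (−4.46, SE 0.28), H4C6 (−2.57, SE 0.72) and H1-6 (−1.80, SE 0.35). H4C6 missed the threshold by DESeq2 (adjusted p = 0.0106) and by edgeR without HAR123-KO neuroectoderm library 3 (adjusted p = 0.0260) or hHAR123 neuroectoderm library 1 (adjusted p = 0.0229). By family the median was 0.53 for H2A, 0.55 for H2B, 0.49 for H3, 0.43 for H4 and 0.33 for H1. No such test was made for cHAR123 and mHAR123.

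Genes that make, process and handle histones were given beside the histone genes from fixed lists. Their counts with differentiation in hHAR123 stand against 40.3% of all genes higher and 39.7% lower. Of 12 genes for histone transcription, 5 rose and 5 fell with differentiation in hHAR123 (median −0.11), with CCNE1, which encodes cyclin E1, at −2.51 and CASP8AP2, a component of histone locus bodies, at 0.62. NPAT rose by 0.24 (SE 0.05). Of 10 tested genes for 3′ end formation, 8 fell and 1 rose (median −0.63), with LSM10, a protein of the U7 snRNP, at −1.50, its partner LSM11 at 0.68 and SLBP at −0.70 (SE 0.05). Histone RNA decay had 6 genes, of which 3 fell and 1 rose, with TUT4, which adds uridines to histone RNA, at 1.54 and the helicase UPF1 at −0.85.

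Of 15 histone chaperones 12 fell and 2 rose (median −0.85), with CHAF1A, the large subunit of the chromatin assembly factor, at −1.54 and DAXX, a chaperone of H3.3, at −1.46. The 12 replication-independent histones had 4 higher and 4 lower (median −0.08), with MACROH2A2, a variant of H2A, at 1.52. Of 24 genes of DNA replication and S phase 20 fell and 0 rose by edgeR, also at an unadjusted p under 0.05 (median −1.23), led by the licensing factor CDT1 (−1.83) and the uracil glycosylase UNG (−1.81). Of 13 other RNAs without poly(A) tails only 4 passed the filter, with 1 higher and 1 lower (median 0.31). Among these lists, the S-phase list had the median nearest to that of the histone genes (−1.17). A link between them was not tested.

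Over all genes, 24.2% were higher and 19.9% lower in HAR123-KO than in hHAR123 neuroectoderm. There, 16 of the 24 S-phase genes were up-regulated and 2 down-regulated (median 0.25), with thymidylate synthase TYMS at 0.68 and the flap endonuclease FEN1 at 0.49. The S-phase list had 5 genes higher and 1 lower in cHAR123 neuroectoderm (median 0.06; 5.9% and 3.99% of all genes), and 6 higher and 1 lower in mHAR123 (median 0.08; 8.8% and 5.21%). In ESC it had 9 lower and 1 higher in HAR123-KO (median −0.09; 5.29% and 7.06%), while 19 of its genes were lower in cHAR123 (median −0.16; 8.6%) and 15 in mHAR123 (median −0.13; 10.2%). In HAR123-KO neuroectoderm, for 3′ end formation, 6 of 10 were up-regulated and 0 down-regulated by edgeR, also at an unadjusted p under 0.05 (median 0.26), with SYMPK at 0.39 and LSM11 at 0.38, while SLBP was at 0.12 (SE 0.06, edgeR adjusted p = 0.0943). Chaperones had 7 of 15 higher and 1 lower (median 0.13), with NASP, which binds H3 and H4, at 0.37. Transcription genes had 2 of 12 higher and 4 lower (median 0.02), with CCNE1 at 0.66, CASP8AP2 at −0.37 and NPAT at −0.16 (SE 0.05). Decay genes had 1 of 6 higher and 3 lower (median −0.16), TUT4 at −0.58. Replication-independent histones had 3 higher and 3 lower (median −0.02), H2AX at 0.52 and the centromeric CENPA at 0.47. Of 4 other RNAs without poly(A) tails 2 were higher and 1 lower (median −0.03), whereas the histone genes had a median of 0.44. The list medians nearest to it were those of 3′ end formation (0.26) and of S phase (0.25).

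**Figure D5:**
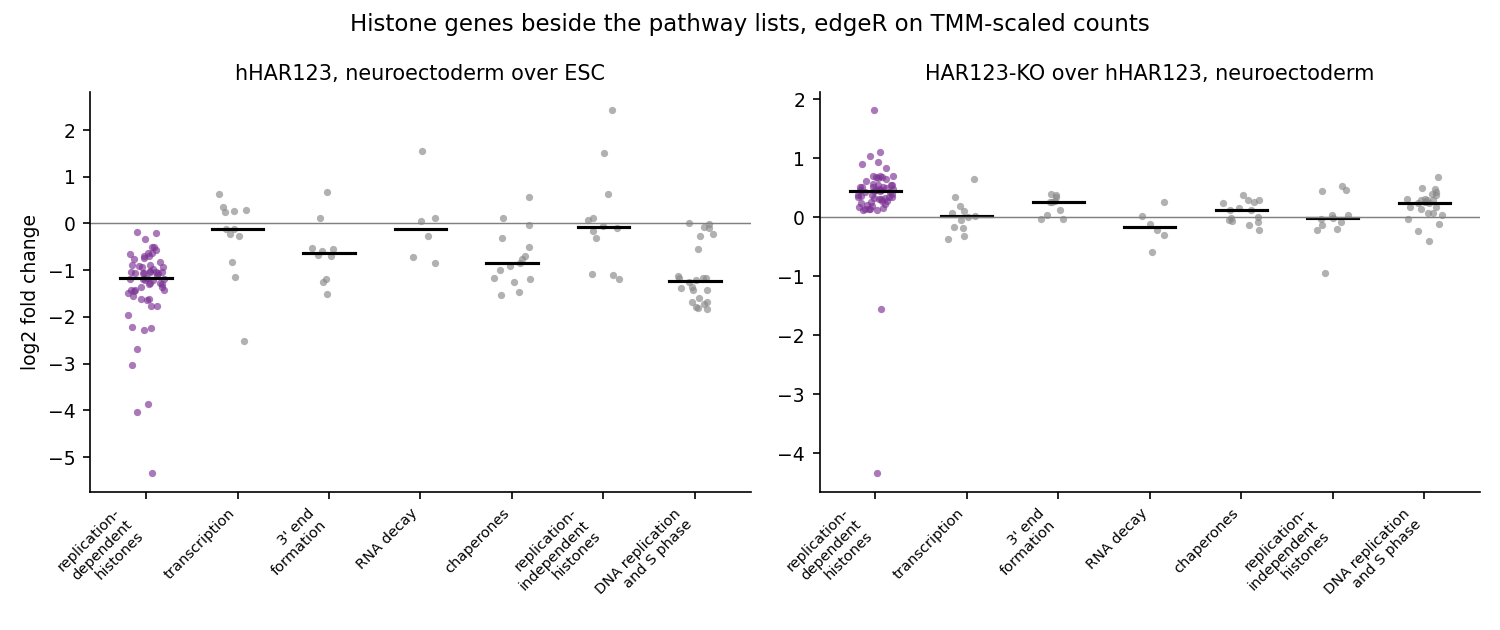
Points are single genes, grouped on the horizontal axis as the replication-dependent histone genes or a pathway list, and the vertical axis gives the log2 fold change, for hHAR123 neuroectoderm over ESC in the left and HAR123-KO over hHAR123 in neuroectoderm in the right panel; bars are medians. The histone genes (−1.17) and the S-phase genes (−1.23) have the lowest medians on the left, and on the right the histone genes have the highest median (0.44).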

How the data were processed

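Raw read counts per gene were deposited by the authors, who, per the labels and the study's methods, aligned quality-filtered paired-end reads with STAR 2.5.2b to GRCh38 (Ensembl 106) and summed exon counts with featureCounts of Subread. The strand setting and the handling of multi-mapping reads are not given in the sources used here. An entry broken over 3 lines was left out. Symbols came from GENCODE 44, and 61398 of 61551 rows had one. The genes and lists described were chosen with earlier results of these data known.

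Each of 11 comparisons was fitted on its own libraries over all genes with edgeR 4.0.16 (R 4.3.3), using filterByExpr, TMM scaling and the quasi-likelihood test, with Benjamini-Hochberg adjustment over all genes tested and a threshold of 0.01. The script was tested on simulated data. Levels are CPM (counts per 1000000 of the library total), at depths of 21022748 to 35198684 counts. Counting intervals cover counting error only, and the floor of 3 counts per library is a fixed setting without an interval. Named genes were, per comparison, the 2 largest increases and decreases among significant genes averaging 1 CPM or more, the 2 most abundant genes per family, genes with polyadenylated or spliced RNAs, and the 2 largest changes per list, of which 1 is not reported here. H4C4, H4C6, H4C16 and the neighbors of H4C13 were chosen after their values were seen. Alternatives were DESeq2 1.42.0, DESeq2 size factors, library totals, no filter, a replicate block, all 24 libraries in 1 fit, a threshold of 0.05 and leaving out each library.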

Additional observations from a re-analysis of the deposited data

Results flagged for a closer look

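The interaction of HAR123-KO with stage passed the edgeR threshold for 59 of the histone genes, so their difference from hHAR123 was not the same in ESC and neuroectoderm. By name, the difference between the stages on the log2 scale was −4.46 for H1-1, −1.80 for H1-6, 1.898 for H4C9 and 1.16 for H2BC15.

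Signal was also present in relatives that the choice of genes left out. Of 13 pseudogenes of the histone clusters, 3 had more than 3 counts in every library (H2BC19P, H2BC20P and H2BC27P). H4C16 on chromosome 12 had a mean of 91.1 CPM over the 24 libraries, and H2BC12L on chromosome 21 a mean of 16.8 CPM. In neuroectoderm H4C16, chosen after its values were seen, measured 68.2 to 71.8 CPM in HAR123-KO and 42.05 to 44.9 in hHAR123. The pseudogenes named above did not share this difference. H2BC20P was lower in HAR123-KO neuroectoderm, at 22.27 to 25.17 CPM against 25.29 to 28.49 in hHAR123. It was also higher in hHAR123 neuroectoderm than in hHAR123 ESC (17.96 to 18.38 CPM). For H2BC19P and H2BC27P, the HAR123-KO and hHAR123 ranges in neuroectoderm overlapped.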

How the results depend on the processing

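With library totals, H4C4 in all 4 genotypes, and H2AC6 and H4C5 in cHAR123 and mHAR123, passed as increases with differentiation. In hHAR123 this reversed H4C4 (0.102) and H2AC6 (0.0932, not past the threshold), and H1-2 in HAR123-KO also changed sign without passing. H2AC6 in mHAR123, which did not pass the test with TMM scaling, changed sign with DESeq2 size factors, and H3C12 in cHAR123 neuroectoderm, likewise not past the threshold, ranged from −0.0134 to 0.0662 on leaving out each library, the negative value without hHAR123 library 1. Scaling to TMM library sizes gave summed ratios of neuroectoderm to ESC of 0.488 in hHAR123, 0.698 in HAR123-KO, 0.572 in cHAR123 and 0.608 in mHAR123, and ratios to hHAR123 in ESC of 0.913, 0.893 and 0.884 for HAR123-KO, cHAR123 and mHAR123. With library totals, genes changed over 2-fold with differentiation numbered 23 in hHAR123 and 7 in HAR123-KO, and 29 genes changed in cHAR123 ESC. Leaving out each library gave 13 to 33 changed genes in HAR123-KO ESC, 29 to 50 in cHAR123 ESC and 10 to 19 in cHAR123 neuroectoderm. In mHAR123 neuroectoderm 0 genes changed over 2-fold by DESeq2, which gave H1-1 no adjusted p, and 2 with all 24 libraries in 1 fit. H2AC6 and H2AC20 in HAR123-KO with differentiation also missed the threshold by DESeq2. Counting 1 copy of each near-identical pair, an alternative chosen after seeing the data, gave a ratio of 0.603 in hHAR123.

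Replicate numbers did not pair the libraries: correlations of same-numbered deviations ranged from −0.110 to 0.124. With the replicate block 40 histone genes changed in mHAR123 neuroectoderm and 40 in cHAR123 ESC, and the shares of all genes in those fits are not given here. At 2 to 8 reads per library, H1-1 in edited neuroectoderm is limited by depth.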

Other observations

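Over the 24 libraries, the genes of at least 10 CPM whose log2 level was most similar to the summed level of the histone genes were AIF1L (Pearson r 0.994), NME4 (0.993), the maintenance DNA methyltransferase DNMT1 (0.993), HERC2 (0.992) and the splicing factor PRPF19 (0.991), among 10889 genes compared. The libraries form 2 clusters, the 2 stages, which all of these values share. DNMT1, which copies methylation onto new DNA, measured 303 to 326 CPM in ESC and 178 to 257 in neuroectoderm.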
